A study of Mus musculus with 11 samples.

Results

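The proteasome subunits are the genes whose symbols name a subunit of the proteasome or of one of its activators: Psma1 to Psma8, Psmb1 to Psmb11, Psmc1 to Psmc6, Psmd1 to Psmd14 and Psme1 to Psme4. The members were taken by symbol, without regard to their values, and the table held 43 of them among 49585 genes. RNA was measured in 11 libraries of C57BL/6 mouse embryos. In ROSI, a round spermatid was injected into the oocyte, and in ICSI a sperm. There were 2 libraries of ROSI zygotes, 3 of ICSI zygotes, 3 of ROSI 2-cell embryos and 3 of ICSI 2-cell embryos. The ROSI embryos alone were activated with strontium chloride (5 mM, 1 to 2 h) in CZB medium without calcium, and embryos of both kinds were then grown in KSOM. The paternal cell and the activation therefore differed together in every comparison of ROSI with ICSI, and their parts cannot be told apart. Nothing in the labels says whether replicates are separate collections of embryos, so p-values measure the spread between these libraries, which may be technical. They give neither the number of embryos per library nor the hour of collection.

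The proteasome is the protease that degrades proteins tagged with ubiquitin. Its 20S core is a barrel of stacked rings: alpha subunits (Psma genes) form the outer rings and gate the entry, and beta subunits (Psmb genes) form the inner rings and hold the catalytic sites. The 19S cap binds the core. The base of the cap is a ring of ATPases that unfold substrates (Psmc genes) with the scaffold and receptor subunits Psmd1, Psmd2 and Psmd4, and the lid (further Psmd genes) holds the deubiquitinating enzyme Psmd14. Chaperones help to assemble the base, and the activators of the Psme genes can bind the core in place of the cap. In early mouse embryos, maternal proteins and mRNAs are cleared while the genome of the embryo is activated, and degradation by the proteasome is a known part of this transition.

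Values are TPM, transcript abundances corrected for gene length and scaled to the same total in each library. Depths estimated from the TPM steps were 30.4 M to 85.9 M reads in zygotes (M, 1e6) and 8.48 M to 32.9 M reads in 2-cell embryos, and the shallowest library was ICSI 2-cell replicate 1. Replicates differed by more than sampling noise (chi-square per degree of freedom between 6.51 and 22.0), so none was a copy of another. Protein-coding genes held 65.9% to 71.5% of the TPM in zygotes and 44.6% to 51.4% in 2-cell embryos. The noncoding gene Gm23935 alone held 8.31% to 14.9% and 12.7% to 23.7%. A lower TPM at the 2-cell stage can therefore mean less of a transcript or more of others, and in bulk samples a change in all embryos cannot be told apart from one in some of them. Stage markers differed between the stages: the summed TPM of 8 oocyte genes was 5067 to 7377 in zygotes and 833 to 1360 in 2-cell embryos, and that of 7 genes of 2-cell activation was 60.5 to 82.6 and 472 to 894. Both sums were lower in ROSI than in ICSI 2-cell embryos, 833 to 1011 against 1340 to 1360 and 472 to 694 against 874 to 894. The oocyte sum was already lower in ROSI than in ICSI zygotes, 5067 to 5814 against 6246 to 7377. Of its genes, Zp3, Nlrp5, Mos and Zar1 overlapped between the 2-cell groups, as did Usp17lb of the activation genes. The part of these markers in the differences between ROSI and ICSI embryos was not tested. Cumulus cell markers (8 genes) summed to 1.08 to 5.33 TPM.

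Of the 43 members, 39 reached at least 1 TPM in at least 2 libraries and were tested with limma on log2(TPM + 1) among 21938 genes. Psma8, Psmb8, Psmb9 and Psmb11 did not. A member is said to have passed at a Benjamini-Hochberg adjusted p under 0.05 over all genes tested, and a log2 difference on this scale understates the fold of genes near 1 TPM. Together the members summed to 4040 TPM (SD 158, n = 2) in ROSI zygotes and 4328 TPM (SD 257, n = 3) in ICSI zygotes. The sums were 1949 TPM (SD 151, n = 3) in ROSI and 1693 TPM (SD 158, n = 3) in ICSI 2-cell embryos. As a share of the TPM of protein-coding genes alone, this was 0.566% to 0.631% in zygotes, 0.388% to 0.433% in ROSI and 0.326% to 0.354% in ICSI 2-cell embryos. Subunits that are built into the same particle in fixed numbers had unequal transcript levels. Among the 31 constitutive subunits of core, base and lid, the highest mean was 409 times the lowest in ICSI zygotes (Psma2 and Psmd13) and 368 times in ROSI zygotes (Psmd4 and Psmd13). At the 2-cell stage the same ratio was 30.8 in ICSI and 20.4 in ROSI embryos (Psmd7 and Psmb3 in both).

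**Figure D1:**
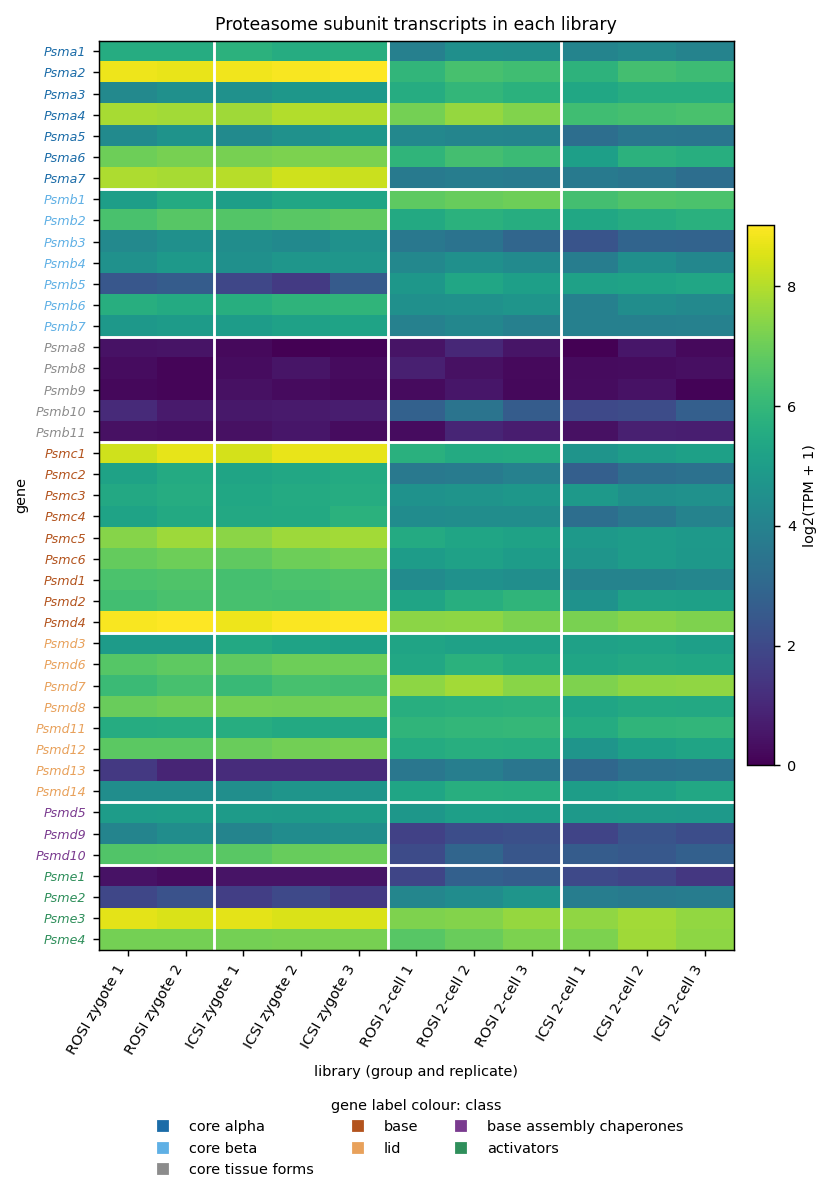
Each row is a subunit and each column a library, and the colour gives log2(TPM + 1). Rows are grouped by class, with white lines between classes and between groups of libraries. Most rows are darker in the 6 libraries of 2-cell embryos than in the 5 of zygotes, while those that rose, among them Psma3, Psmb1, Psmb5, Psmd7, Psmd13, Psmd14, Psmb10, Psme1 and Psme2, are brighter there, and 4 rows of tissue forms are dark throughout.

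From zygote to 2-cell embryo, proteasome transcripts changed in both directions. After ICSI 10 of 39 members rose and 26 fell, with a median of -1.44, where 33.0% of all genes tested rose and 35.0% fell with a median of 0.00. After ROSI 10 rose and 24 fell, with a median of -0.94, where 35.6% of all genes rose and 32.3% fell with a median of 0.19. The counts come from limma, in which all 11 libraries gave 1 estimate of the spread per gene. The ICSI and the ROSI comparison share no library. The same 10 members rose in both and the same 24 fell in both. Psma5 and Psmb4, lower after ICSI, had log2 differences of -0.35 (SE 0.16, adjusted p = 0.0736 in limma) and -0.35 (SE 0.19, adjusted p = 0.118 in limma) after ROSI. Over the 39 members, the changes after ICSI and after ROSI had a Pearson r of 0.98, a description over genes that share libraries. With TPM rescaled to protein-coding genes alone, 13 rose and 25 fell after ICSI and 13 rose and 22 fell after ROSI, of 40 tested. Of all protein-coding genes tested, 42.4% rose and 32.3% fell after ICSI, and 44.6% rose and 31.4% fell after ROSI.

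**Figure D2:**
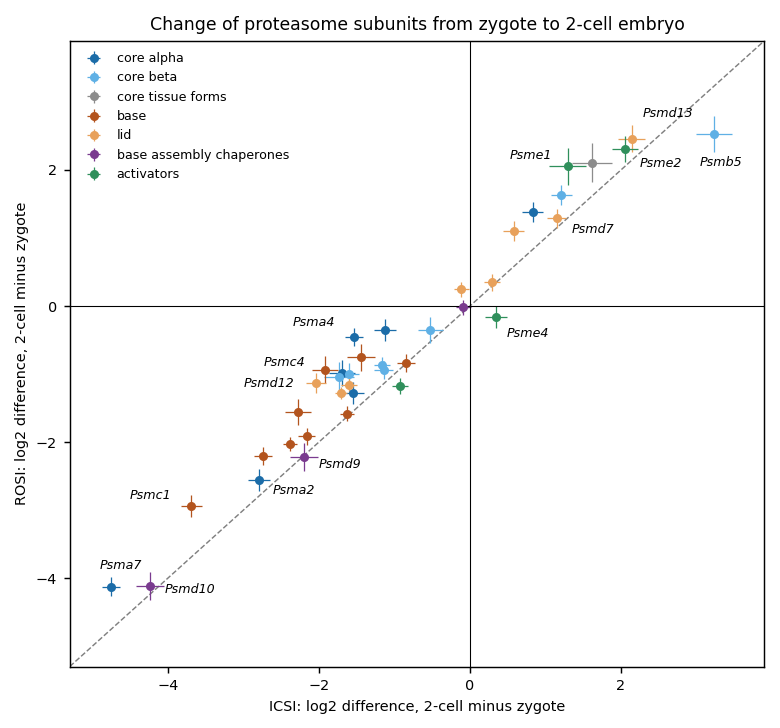
Each point is a tested subunit, with its log2 difference (2-cell minus zygote) after ICSI on the horizontal and after ROSI on the vertical axis; bars are standard errors and the dashed line marks equal change. The points run along the line from Psma7 (-4.76 and -4.12) to Psmb5 (3.23 and 2.53), and 35 of 39 lie above it.

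Between ROSI and ICSI zygotes no member passed, where 0.146% of all genes tested did, in either direction. At an unadjusted limma p under 0.05 there were 2 of 39 members (6.35% of all genes), Psma7 and Psmd3, with log2 differences of -0.35 (SE 0.13, adjusted p = 0.629 in limma) and -0.33 (SE 0.11, adjusted p = 0.507 in limma). The median of the members was -0.08, and that of all genes was -0.06. Replicate 1 of ROSI and of ICSI zygotes had less small nuclear and nucleolar RNA (0.611% and 0.572% of TPM) than the other zygote libraries (1.64% to 2.58%). Over the 39 members, ROSI replicate 1 minus ICSI replicate 1 had a median of -0.02. The median of ROSI replicate 2 minus the mean of ICSI replicates 2 and 3 was -0.04. Each of these rests on 1 ROSI library.

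Between ROSI and ICSI 2-cell embryos, 10 of 39 members were higher in ROSI and 1 was lower by limma, where 4.93% of all genes tested were higher and 4.58% lower. The higher members were Psma4 and Psma5 of the alpha ring, Psmc1, Psmc2, Psmc4, Psmc5 and Psmd1 of the base, Psmd8 and Psmd12 of the lid and the activator subunit Psme2. The activator Psme4 was lower. The median of the members was 0.28, against 0.04 for all genes, and 34 of 39 had a difference above 0. In 18 members every ROSI library lay above every ICSI library (15.4% of all genes), in 1 every ROSI library lay below (11.8%), and in 20 the groups overlapped. Of the 11 calls, 10 were lost in at least 1 fit that left out a library. Without the shallowest library, ICSI 2-cell replicate 1, Psma4 and Psmd12 alone were called higher, where 2.39% of all genes were. Without ROSI 2-cell replicate 2 these were Psma4, Psma5 and Psmc1 (2.29% of all genes). Without ICSI 2-cell replicate 2 there were 4 (Psma4, Psma5, Psma6 and Psmc1), where 2.89% of all genes were higher. Without ICSI zygote replicate 2 or 3 there were 6 (3.23% and 3.22% of all genes). With the 6 libraries of 2-cell embryos fitted alone, Psma4 and Psma5 were called, where 1.45% of all genes were higher. Psma4 passed under every omission and setting tried. Under median-ratio scaling 8 were higher and 2, Psme3 and Psme4, were lower, where 4.78% of all genes were higher and 10.8% lower. With protein-coding genes alone 18 of 40 were higher and 1 lower, where 14.5% of these genes were higher and 8.74% lower. The sum of 11 spermatid transcripts also differed between these groups. It was 39.9 to 58.6 TPM in ROSI and 10.4 to 15.5 TPM in ICSI 2-cell embryos, where Ldhc alone held 7.55 to 10.7 TPM. Smcp was at 0 in all ICSI and at 5.22 to 12.1 TPM in ROSI 2-cell libraries. Tnp2 was at 0 in all ICSI 2-cell libraries and in ROSI 2-cell replicate 3. Ldhc, Acrv1, Prm1 and Prm2 overlapped between the groups. The part of these transcripts in the subunit differences was not tested.

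**Figure D3:**
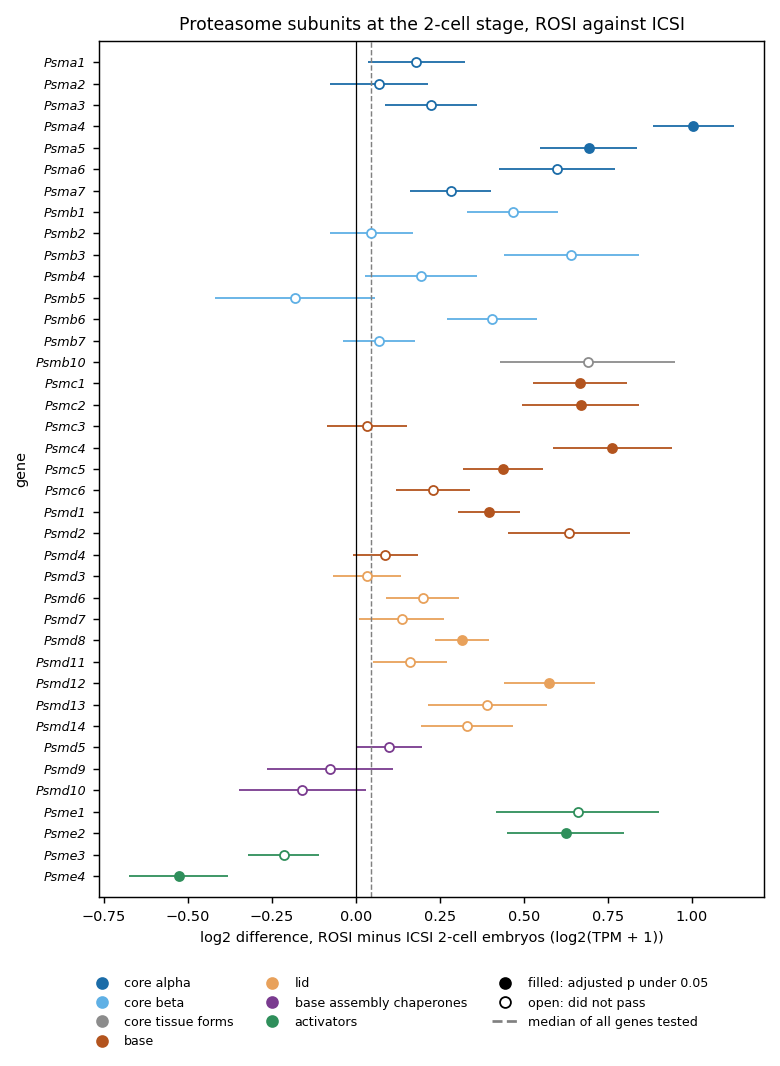
The log2 difference of each tested subunit (horizontal axis, ROSI minus ICSI 2-cell embryos) is shown with its standard error as a bar. Filled points passed at an adjusted p under 0.05, and the dashed line is the median of all genes tested (0.04). Psma4 lies farthest to the right (1.00) and Psme4 farthest to the left (-0.53). All 9 points of the base, all 8 of the lid and all 7 of the alpha ring lie above 0.

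The 250 bases before each start were searched on both strands for 3 motifs, in RefSeq windows of GRCm38.p6, the build named mm10. Windows were at hand for 36 of 43 members (39 windows). The ETS core CCGGAAG was in 30.8% of the members' windows and 6.91% of all 32851 windows. The CCAAT box was in 35.9% and 33.85%, and the antioxidant response element TGACNNNGC, which factors of the Nfe2l family bind, in 12.8% and 10.2%. The ETS core was in 3 of 10 windowed members that were higher in ROSI 2-cell embryos and in Psme4, which was lower. Of the 25 other windowed members, which did not pass or were not tested, 7 held it. No match overlapped one of another motif. A match describes the letters and not binding. The sites of the called members with an ETS core, and of Psmb5, Psmb6 and Psmd12 with a response element, are shown because they lie before subunits called in opposite directions, a choice made after their values were seen, with the motif in capitals on the strand that reads it 5′ to 3′.
Psmc1 ETS chr12:100110164-100110190 (-): atcgccaccgCCGGAAGtgcatccacc
Psmc2 ETS, first window chr5:21785181-21785207 (-): gagccccatcCCGGAAGtgctcactgg
Psmc2 ETS, other window chr5:21786713-21786739 (-): ctcttccccaCCGGAAGtagctccgcg
Psmd12 ETS chr11:107479501-107479527 (-): gtcactcgcaCCGGAAGtcgcccgctc
Psme4 ETS chr11:30771712-30771738 (+): tggccccgccCCGGAAGtgacttgagg
Psmb5 response element chr14:54618024-54618052 (-): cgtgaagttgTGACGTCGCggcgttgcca
Psmb6 response element chr11:70525338-70525366 (+): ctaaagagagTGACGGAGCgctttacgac
Psmd12 response element chr11:107479278-107479299 (-): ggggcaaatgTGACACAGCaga
Of the 5 members with a response element, Psmb5 rose, and Psmb6, Psmc6, Psmd9 and Psmd12 fell, after ICSI and after ROSI. Of the called members with an ETS core, Psmc1, Psmc2 and Psmd12 were higher in ROSI 2-cell embryos and Psme4 was lower. The part of the motifs in these differences was not tested.

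The alpha ring held the subunits with the lowest log2 difference by stage, Psma7, and the highest between ROSI and ICSI 2-cell embryos, Psma4. The sum was 1116 TPM (SD 18.7, n = 2) in ROSI and 1273 TPM (SD 86.4, n = 3) in ICSI zygotes, and 409 TPM (SD 60.2, n = 3) in ROSI and 279 TPM (SD 32.5, n = 3) in ICSI 2-cell embryos. Psma7 stood at 243 and 231 TPM in ROSI zygotes, 267, 334 and 311 TPM in ICSI zygotes, 12.2, 13.2 and 12.6 TPM in ROSI 2-cell embryos and 11.8, 10.5 and 8.60 TPM in ICSI 2-cell embryos. The zygote libraries were all far above the 2-cell libraries, 29.5-fold by means after ICSI and 18.7-fold after ROSI, with log2 differences of -4.76 (SE 0.12) after ICSI and -4.12 (SE 0.13) after ROSI. Psma2, the most abundant alpha transcript in zygotes, stood at 442 and 419 TPM in ROSI zygotes, 454, 488 and 519.8 TPM in ICSI zygotes, 60.05, 82.8 and 76.4 TPM in ROSI 2-cell embryos and 56.5, 80.0 and 72.7 TPM in ICSI 2-cell embryos. It fell with log2 differences of -2.80 (SE 0.15) after ICSI and -2.55 (SE 0.16) after ROSI. Psma3 moved the other way and was the 1 alpha transcript that rose. It stood at 18.1 and 22.1 TPM in ROSI zygotes, 22.5, 26.3 and 27.8 TPM in ICSI zygotes, 46.8, 62.5 and 53.2 TPM in ROSI 2-cell embryos and 41.0, 48.7 and 48.5 TPM in ICSI 2-cell embryos, with log2 differences of 0.83 (SE 0.14) after ICSI and 1.38 (SE 0.15) after ROSI. Psma3 has a processed pseudogene, Gm13835, that is identical over 662 bases, and its copies in the table together held 7.63% to 13.7% of its mean TPM, so a part of the reads may be split between them.

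Psma4 was the subunit that differed most between ROSI and ICSI embryos. The gene lies on chromosome 9 from 54950790 to 54958030 (mm10, plus strand). It stood at 230.3 and 218 TPM in ROSI zygotes and 214, 249 and 248 TPM in ICSI zygotes, where the groups overlapped. At the 2-cell stage it stood at 140.1, 195 and 158 TPM in the ROSI and 75.8, 81.6 and 85.1 TPM in the ICSI libraries, so the lowest ROSI library was well above the highest ICSI library. The means differed 2.04-fold, with a log2 difference of 1.00 (SE 0.12, adjusted p = 0.00361 in limma), and the adjusted p was at most 0.0141 without any single library. From the zygote, the log2 difference was -1.54 (SE 0.12, adjusted p = 7.46e-07 in limma) after ICSI and -0.46 (SE 0.14, adjusted p = 0.0114 in limma) after ROSI. The latter turned to 0.12 under quantile normalization and to 0.020 with protein-coding genes alone, neither of which passed, so a fall after ROSI depends on the scaling. It also missed the threshold without ROSI zygote replicate 1 (adjusted p = 0.0681). A pseudogene copy, Gm6542, reached 1.22% to 3.29% of the mean TPM of Psma4, and the antisense gene AY074887, which shares 114 exon bases, averaged 2.40 TPM in ROSI and 0.895 TPM in ICSI 2-cell embryos.

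Psma5 showed the next clearest difference in the ring, with 17.4, 16.1 and 16.0 TPM in the ROSI and 8.59, 10.7 and 10.3 TPM in the ICSI libraries at the 2-cell stage and a log2 difference of 0.69 (SE 0.14, adjusted p = 0.0176 in limma). In zygotes it had stood at 18.99 and 23.8 TPM in ROSI zygotes and 18.9, 22.8 and 26.6 TPM in ICSI zygotes. It lost the call without ICSI 2-cell replicate 1 (adjusted p = 0.0541). Psma6 stood at 130.4 and 142 TPM in ROSI zygotes, 143, 151 and 146 TPM in ICSI zygotes, 58.3, 78.5 and 69.7 TPM in ROSI 2-cell embryos and 33.0, 54.8 and 49.7 TPM in ICSI 2-cell embryos. Its ROSI 2-cell libraries were all above the ICSI ones, but the log2 difference of 0.60 (SE 0.17, adjusted p = 0.0548 in limma) missed the threshold. Psma1 stood at 46.8 and 46.7 TPM in ROSI zygotes, 54.2, 46.7 and 49.0 TPM in ICSI zygotes, 14.3, 21.6 and 21.01 TPM in ROSI 2-cell embryos and 15.7, 17.8 and 15.6 TPM in ICSI 2-cell embryos, and its 2-cell groups overlapped. Both fell from the zygote, by log2 differences of -1.69 (SE 0.17) after ICSI and -0.98 (SE 0.19) after ROSI for Psma6 and -1.55 (SE 0.15) after ICSI and -1.28 (SE 0.16) after ROSI for Psma1. Psma1, Psma2, Psma3 and Psma7 did not pass between ROSI and ICSI 2-cell embryos, with log2 differences from 0.07 to 0.28.

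In the beta ring the order of the subunits changed while the summed level stayed within 199 to 299 TPM. The sum was 258 TPM (SD 26.2, n = 2) in ROSI and 278 TPM (SD 22.5, n = 3) in ICSI zygotes, and 269 TPM (SD 20.8, n = 3) in ROSI and 225 TPM (SD 22.6, n = 3) in ICSI 2-cell embryos. Psmb5, Psmb6 and Psmb7 encode the catalytic subunits. Psmb5, which holds the chymotrypsin-like site, was the lowest beta transcript in zygotes and rose the most of all members by log2. It stood at 4.46 and 5.13 TPM in ROSI zygotes, 2.76, 1.92 and 5.08 TPM in ICSI zygotes, 26.3, 39.0 and 33.4 TPM in ROSI 2-cell embryos and 34.6, 36.7 and 40.0 TPM in ICSI 2-cell embryos. The 2-cell means were 11.4-fold the zygote means after ICSI and 6.87-fold after ROSI, with log2 differences of 3.23 (SE 0.24) after ICSI and 2.53 (SE 0.27) after ROSI. After ROSI the means of Psme1 (0.296 to 4.58 TPM) and Psmd13 (1.35 to 11.8 TPM) rose by larger folds, which the log2 scale understates near 1 TPM. The upstream window of Psmb5 held the response element shown above. A processed pseudogene, Gm3375, is 98.9% identical to it over 793 bases and held 6.36% to 15.2% of its mean TPM. Psmb6, with the caspase-like site, fell. It stood at 49.8 and 45.03 TPM in ROSI zygotes, 49.9, 56.8 and 58.2 TPM in ICSI zygotes, 22.1, 22.6 and 25.4 TPM in ROSI 2-cell embryos and 14.1, 20.6 and 18.0 TPM in ICSI 2-cell embryos, and the log2 differences were -1.61 (SE 0.13) after ICSI and -0.99 (SE 0.15) after ROSI. Psmb7, with the trypsin-like site, also fell, with log2 differences of -1.17 (SE 0.11) after ICSI and -0.86 (SE 0.12) after ROSI. Its libraries held 26.8 and 30.3 TPM in ROSI zygotes, 30.5, 34.6 and 36.6 TPM in ICSI zygotes, 14.8, 16.9 and 14.1 TPM in ROSI 2-cell embryos and 14.4, 14.4 and 14.6 TPM in ICSI 2-cell embryos.

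The other beta subunits are structural. Psmb1 rose from 32.1 and 44.7 TPM in ROSI zygotes and 32.6, 39.2 and 38.7 TPM in ICSI zygotes to 109, 119.8 and 131 TPM in ROSI and 78.5, 93.1 and 88.0 TPM in ICSI 2-cell embryos, and every ROSI 2-cell library was above every ICSI one. The stage differences were 1.21 (SE 0.14) after ICSI and 1.63 (SE 0.15) after ROSI. Psmb2 stood at 85.3 and 102 TPM in ROSI zygotes, 95.5, 105 and 111 TPM in ICSI zygotes, 43.3, 52.8 and 48.5 TPM in ROSI 2-cell embryos and 40.4, 47.6 and 52.3 TPM in ICSI 2-cell embryos. Psmb3, the lowest beta transcript of 2-cell embryos, stood at 17.9 and 21.9 TPM in ROSI zygotes, 20.6, 18.5 and 22.8 TPM in ICSI zygotes, 11.3, 9.75 and 6.86 TPM in ROSI 2-cell embryos and 4.02, 6.45 and 6.33 TPM in ICSI 2-cell embryos. Both fell after ICSI and after ROSI, by log2 differences of -1.14 (SE 0.12) after ICSI and -0.94 (SE 0.14) after ROSI for Psmb2 and -1.73 (SE 0.20) after ICSI and -1.04 (SE 0.22) after ROSI for Psmb3. Psmb4 ranged from 13.1 to 27.5 TPM over the 11 libraries and passed after ICSI alone (-0.52, SE 0.17, adjusted p = 0.0167 in limma), a call lost without ICSI 2-cell replicate 1 (adjusted p = 0.0599). None of the 7 beta subunits passed between ROSI and ICSI 2-cell embryos, and the largest differences were 0.64 (SE 0.20, adjusted p = 0.0709 in limma) for Psmb3, 0.47 (SE 0.14, adjusted p = 0.0562 in limma) for Psmb1 and 0.40 (SE 0.13, adjusted p = 0.0837 in limma) for Psmb6.

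**Figure D4:**
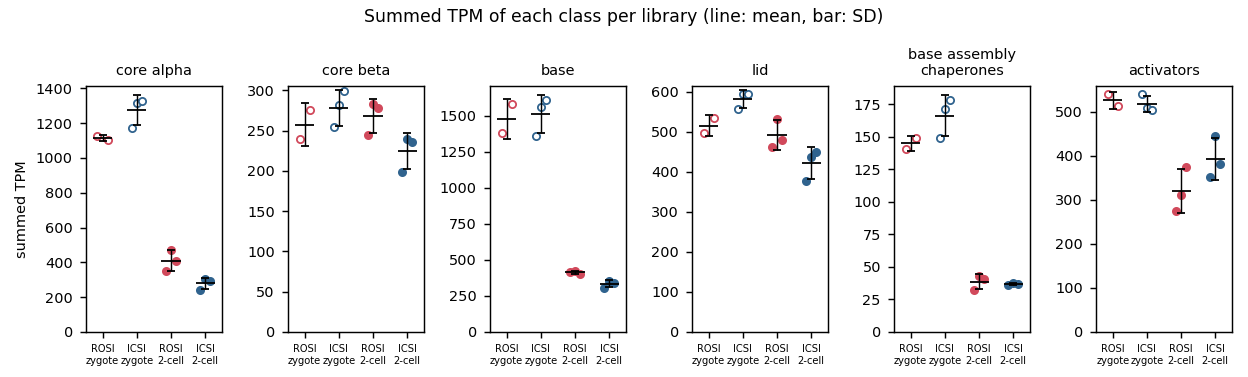
The vertical axis is the summed TPM of the subunits of a class, and each point is a library (open: zygotes, filled: 2-cell embryos, red: ROSI, blue: ICSI) with the group mean as a line and the SD as a bar. The alpha ring, the base and the assembly chaperones drop at the 2-cell stage, while the beta ring stays between 199 and 299 TPM in all 11 libraries.

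The base was the class that fell as a whole. All 9 subunits fell after ICSI and all 9 after ROSI, with medians of -2.16 and -1.58, where 35.0% and 32.3% of all genes tested fell. These calls held under each scaling tried, except that 8 of 9 passed after ROSI with protein-coding genes alone. In that fit 31.4% of the genes tested fell. The sum was 1479 TPM (SD 139, n = 2) in ROSI and 1509 TPM (SD 131, n = 3) in ICSI zygotes, and 413 TPM (SD 11.2, n = 3) in ROSI and 333 TPM (SD 23.2, n = 3) in ICSI 2-cell embryos. Psmc1, an ATPase of the ring, stood at 334 and 413 TPM in ROSI zygotes, 345, 424 and 415 TPM in ICSI zygotes, 51.8, 45.2 and 45.7 TPM in ROSI 2-cell embryos and 24.4, 31.0 and 34.1 TPM in ICSI 2-cell embryos. It was 13.2-fold lower by means at the 2-cell stage after ICSI and 7.85-fold lower after ROSI, with log2 differences of -3.69 (SE 0.14) after ICSI and -2.94 (SE 0.16) after ROSI. Psmc5, another ATPase, stood at 167 and 206 TPM in ROSI zygotes, 176, 207 and 215 TPM in ICSI zygotes, 44.5, 38.2 and 36.0 TPM in ROSI 2-cell embryos and 28.4, 30.4 and 27.7 TPM in ICSI 2-cell embryos. Psmd1, the large scaffold subunit, stood at 86.9 and 92.0 TPM in ROSI zygotes, 80.4, 87.1 and 92.2 TPM in ICSI zygotes, 19.7, 22.7 and 21.03 TPM in ROSI 2-cell embryos and 15.3, 15.4 and 16.7 TPM in ICSI 2-cell embryos. Their log2 differences were -2.75 (SE 0.12) after ICSI and -2.21 (SE 0.13) after ROSI for Psmc5 and -2.38 (SE 0.09) after ICSI and -2.03 (SE 0.10) after ROSI for Psmd1. Psmd4, a ubiquitin receptor, was the most abundant base transcript in all 4 groups. It stood at 483 and 514 TPM in ROSI zygotes, 443, 499.5 and 512 TPM in ICSI zygotes, 173, 177 and 149 TPM in ROSI 2-cell embryos and 148, 167 and 153 TPM in ICSI 2-cell embryos, with log2 differences of -1.63 (SE 0.10) after ICSI and -1.58 (SE 0.11) after ROSI.

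In the base 5 of 9 subunits were higher in ROSI 2-cell embryos, of 10 members in all, where 4.93% of all genes tested were. The 9 differences of the base had a median of 0.44. In Psmc1 the log2 difference was 0.67 (SE 0.14, adjusted p = 0.0189 in limma), lost without ICSI 2-cell replicate 1 (adjusted p = 0.0515) and without ROSI 2-cell replicate 1. Psmc4 stood at 36.4 and 43.4 TPM in ROSI zygotes and 42.3, 43.8 and 53.8 TPM in ICSI zygotes and at 19.8, 20.7 and 20.3 TPM in the ROSI and 8.67, 11.3 and 15.5 TPM in the ICSI libraries of 2-cell embryos, a log2 difference of 0.76 (SE 0.18, adjusted p = 0.026 in limma). Psmc2 stood at 35.7 and 44.6 TPM in ROSI zygotes and 37.3, 41.6 and 45.2 TPM in ICSI zygotes and at 11.7, 12.6 and 14.5 TPM in the ROSI and 5.62, 8.66 and 9.40 TPM in the ICSI libraries of 2-cell embryos, a log2 difference of 0.67 (SE 0.17, adjusted p = 0.0394 in limma). In both ATPases the lowest ICSI value was that of the shallowest library, and they passed in 7 and 4 of 11 fits that left out a library, up to adjusted p = 0.0753 and 0.0905 without ROSI 2-cell replicate 2. The differences were 0.44 (SE 0.12, adjusted p = 0.0454 in limma) for Psmc5 and 0.40 (SE 0.09, adjusted p = 0.0257 in limma) for Psmd1, and they passed in 4 and 8 of 11 such fits, up to adjusted p = 0.109 without ROSI 2-cell replicate 1 and 0.0856 without ROSI 2-cell replicate 2. Psmd2, the other scaffold subunit, was at 23.1 to 35.3 TPM in ICSI and 37.6 to 58.6 TPM in ROSI 2-cell embryos without overlap, and its difference of 0.63 (SE 0.18, adjusted p = 0.0532 in limma) just missed. The ATPase Psmc6 was higher in every ROSI 2-cell library but did not pass (0.23, SE 0.11, adjusted p = 0.218 in limma). Psmc3 and Psmd4 overlapped between the groups, with differences of 0.03 and 0.09. By stage, Psmc2 and Psmc4 fell with log2 differences of -2.28 (SE 0.17) after ICSI and -1.56 (SE 0.19) after ROSI and of -1.92 (SE 0.18) after ICSI and -0.94 (SE 0.20) after ROSI. Those of Psmc3 were -0.85 (SE 0.12) after ICSI and -0.83 (SE 0.13) after ROSI, and those of Psmc6 -2.16 (SE 0.11) after ICSI and -1.91 (SE 0.12) after ROSI. Psmd2 fell with -1.44 (SE 0.18) after ICSI and -0.76 (SE 0.20) after ROSI, and the latter call was lost without ROSI zygote replicate 2 (adjusted p = 0.0506).

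**Figure D5:**
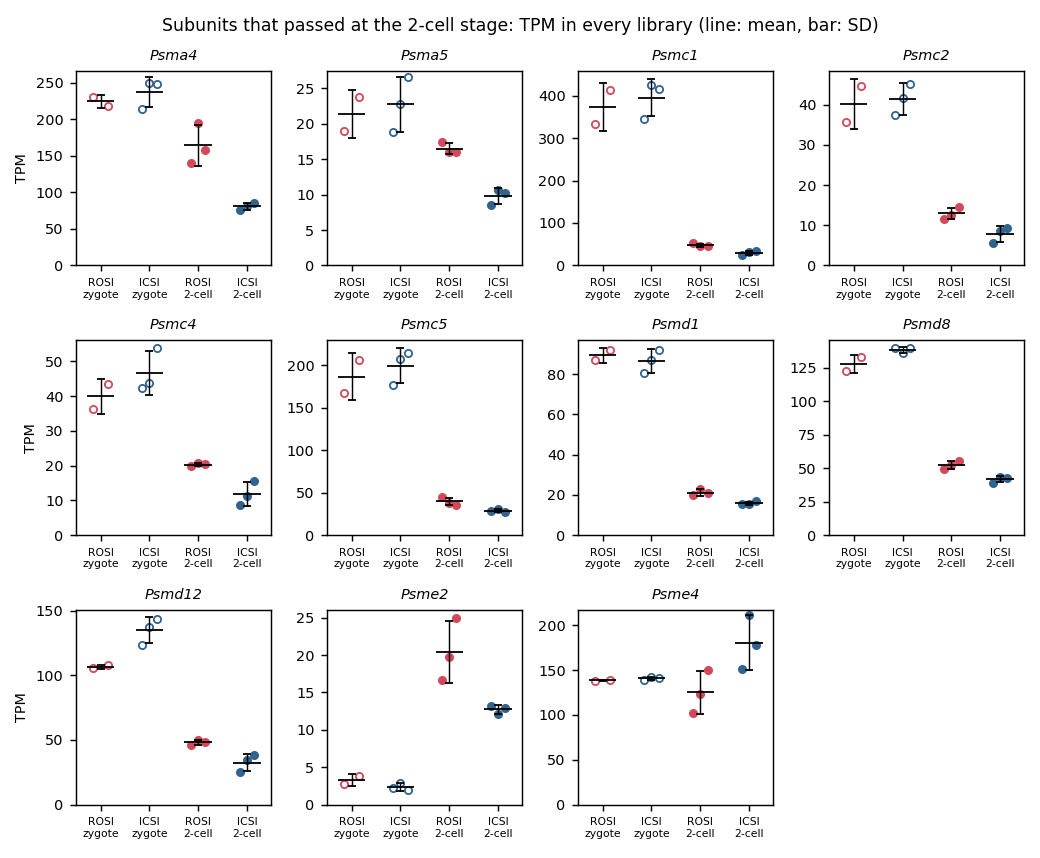
TPM (vertical axes, from 0) of the 11 subunits that passed between ROSI and ICSI 2-cell embryos, in every library of the 4 groups (open: zygotes, filled: 2-cell embryos, red: ROSI, blue: ICSI), with group means as lines and SDs as bars. The filled red points lie above the filled blue ones in 10 panels and below them in the panel of Psme4, where the highest ROSI and the lowest ICSI library are both near 151 TPM.

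The lid split. Psmd7, Psmd11, Psmd13 and Psmd14 rose at the 2-cell stage after ICSI and after ROSI, Psmd6, Psmd8 and Psmd12 fell, and Psmd3 did not pass in either. The sum was 516 TPM (SD 26.2, n = 2) in ROSI and 582 TPM (SD 21.7, n = 3) in ICSI zygotes, and 491 TPM (SD 37.2, n = 3) in ROSI and 421 TPM (SD 39.4, n = 3) in ICSI 2-cell embryos. Psmd13 was the lowest of the 31 constitutive subunits in zygotes. It stood at 1.80 and 0.909 TPM in ROSI zygotes, 1.22, 1.20 and 1.15 TPM in ICSI zygotes, 11.1, 13.6 and 10.6 TPM in ROSI 2-cell embryos and 7.12, 9.31 and 9.84 TPM in ICSI 2-cell embryos. This was a 7.36-fold difference of means after ICSI and 8.68-fold after ROSI, with log2 differences of 2.14 (SE 0.18) after ICSI and 2.46 (SE 0.20) after ROSI. Psmd7, the partner of the deubiquitinase, became the most abundant of the 31 constitutive subunits in 2-cell embryos. It stood at 69.9 and 84.0 TPM in ROSI zygotes, 68.3, 83.9 and 79.0 TPM in ICSI zygotes, 179.6, 218 and 172 TPM in ROSI 2-cell embryos and 155, 178 and 184 TPM in ICSI 2-cell embryos, with log2 differences of 1.15 (SE 0.13) after ICSI and 1.29 (SE 0.14) after ROSI. Psmd14, the deubiquitinase itself, stood at 20.5 and 20.5 TPM in ROSI zygotes, 20.8, 25.2 and 25.1 TPM in ICSI zygotes, 38.4, 49.6 and 48.3 TPM in ROSI 2-cell embryos and 31.6, 34.5 and 41.7 TPM in ICSI 2-cell embryos. It rose with log2 differences of 0.58 (SE 0.14) after ICSI and 1.10 (SE 0.15) after ROSI, and its difference between ROSI and ICSI 2-cell embryos was 0.33 (SE 0.14, adjusted p = 0.151 in limma).

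Among the lid subunits that fell, Psmd12 stood at 106 and 108 TPM in ROSI zygotes, 124, 137 and 143 TPM in ICSI zygotes, 46.3, 50.04 and 48.0 TPM in ROSI 2-cell embryos and 25.0, 34.3 and 38.0 TPM in ICSI 2-cell embryos. The stage differences of this scaffold subunit were -2.04 (SE 0.14) after ICSI and -1.13 (SE 0.15) after ROSI. It was higher in ROSI 2-cell embryos by 0.57 (SE 0.14, adjusted p = 0.0279 in limma), a call that held in 8 of 11 fits that left out a library, up to adjusted p = 0.0832 without ROSI 2-cell replicate 2. Psmd8, another scaffold subunit, stood at 123 and 133 TPM in ROSI zygotes, 139, 136 and 139.7 TPM in ICSI zygotes, 49.0, 52.2 and 54.9 TPM in ROSI 2-cell embryos and 39.0, 43.5 and 42.2 TPM in ICSI 2-cell embryos. Its difference between ROSI and ICSI 2-cell embryos was 0.32 (SE 0.08, adjusted p = 0.0379 in limma), and it passed in 1 of 11 fits that left out a library. It fell with stage differences of -1.71 (SE 0.08) after ICSI and -1.28 (SE 0.09) after ROSI. Psmd6 stood at 99.6 and 110.3 TPM in ROSI zygotes, 113, 131 and 130.4 TPM in ICSI zygotes, 41.3, 53.1 and 45.9 TPM in ROSI 2-cell embryos and 38.4, 42.4 and 40.6 TPM in ICSI 2-cell embryos, with stage differences of -1.60 (SE 0.11) after ICSI and -1.15 (SE 0.12) after ROSI. Psmd11 rose slightly, from 42.2 to 48.5 TPM in zygotes to 46.2 to 64.3 TPM, by 0.29 (SE 0.11, adjusted p = 0.0362 in limma) after ICSI and 0.35 (SE 0.12, adjusted p = 0.0266 in limma) after ROSI. Both calls ended when 1 library was left out, with adjusted p = 0.132 without ICSI 2-cell replicate 3 and 0.107 without ROSI zygote replicate 1. Psmd3 stayed between 29.8 and 42.9 TPM in all 11 libraries and did not pass by stage, with -0.12 (SE 0.10) after ICSI and 0.25 (SE 0.11) after ROSI. It was called higher after ICSI with protein-coding genes alone (0.41), and after ROSI under quantile normalization (0.44) and with protein-coding genes alone (0.72).

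The chaperones that hold the ATPases during assembly of the base differed among themselves. Psmd10, also called gankyrin, stood at 94.6 and 97.1 TPM in ROSI zygotes, 103, 122 and 126 TPM in ICSI zygotes, 3.22, 6.63 and 4.38 TPM in ROSI 2-cell embryos and 5.21, 4.65 and 5.88 TPM in ICSI 2-cell embryos. It fell 22.3-fold by means after ICSI and 20.2-fold after ROSI, with log2 differences of -4.24 (SE 0.19) after ICSI and -4.12 (SE 0.21) after ROSI. Psmd9 stood at 15.8 and 20.6 TPM in ROSI zygotes, 15.6, 20.1 and 21.1 TPM in ICSI zygotes, 2.37, 3.42 and 3.57 TPM in ROSI 2-cell embryos and 2.59, 4.07 and 3.38 TPM in ICSI 2-cell embryos, with log2 differences of -2.20 (SE 0.19) after ICSI and -2.22 (SE 0.21) after ROSI. The chaperone Psmd5 stayed between 26.6 and 33.1 TPM in all 11 libraries, with log2 differences of -0.09 after ICSI and -0.02 after ROSI that did not pass. With protein-coding genes alone it was called higher, by 0.43 and 0.45. None of these 3 passed between ROSI and ICSI 2-cell embryos, where their differences ran from -0.16 to 0.10.

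The activators divided by type. Psme1 and Psme2 encode the PA28 alpha and beta subunits, which interferon induces in many cells. They lie close together on chromosome 14 (mm10, 55578123 to 55581529 on the plus and 55587441 to 55591113 on the minus strand). Psme1 stood at 0.361 and 0.232 TPM in ROSI zygotes, 0.403, 0.379 and 0.388 TPM in ICSI zygotes, 2.69, 5.88 and 5.17 TPM in ROSI 2-cell embryos and 2.99, 2.60 and 1.76 TPM in ICSI 2-cell embryos. Psme2 stood at 2.77 and 3.85 TPM in ROSI zygotes, 2.17, 2.94 and 1.89 TPM in ICSI zygotes, 16.6, 19.7 and 24.9 TPM in ROSI 2-cell embryos and 13.2, 12.1 and 12.9 TPM in ICSI 2-cell embryos. Both were low in zygotes and rose, by log2 differences of 1.29 (SE 0.24) after ICSI and 2.06 (SE 0.27) after ROSI for Psme1 and 2.05 (SE 0.17) after ICSI and 2.31 (SE 0.19) after ROSI for Psme2. Between ROSI and ICSI 2-cell embryos the differences were 0.66 (SE 0.24, adjusted p = 0.113 in limma) for Psme1, where libraries overlapped, and 0.62 (SE 0.17, adjusted p = 0.0495 in limma) for Psme2, where they did not. Psme2 passed in 1 of 11 fits that left out a library. Its near-identical copy Psme2b (99.3% over 717 bases) held 16.8% of its mean TPM in ROSI and 8.58% in ICSI 2-cell embryos, so reads can be split between them. The sum of 5 leukocyte markers was also higher in ROSI, 17.6 to 21.5 TPM against 9.91 to 14.5 TPM in ICSI 2-cell embryos. Its largest part was Cd74 (10.2 to 12.4 and 4.31 to 9.04 TPM), and Cd52 was also higher in ROSI (2.05 to 2.11 against 0.555 to 1.40 TPM). Coro1a overlapped (3.10 to 6.11 and 1.86 to 3.70 TPM), and Laptm5 was lower in ROSI (0.686 to 1.25 against 1.53 to 2.20 TPM). Ptprc, which defines leukocytes, was at most 0.0942 TPM in these libraries. The part of these markers in the result was not tested.

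Psme3, the nuclear activator PA28 gamma, was the most abundant activator transcript in zygotes. It stood at 398 and 369 TPM in ROSI zygotes, 398, 363 and 360.1 TPM in ICSI zygotes, 153, 161 and 193 TPM in ROSI 2-cell embryos and 184, 217 and 188 TPM in ICSI 2-cell embryos, and fell with log2 differences of -0.93 (SE 0.11) after ICSI and -1.18 (SE 0.12) after ROSI. Psme4, which encodes the activator PA200, was the 1 member that was lower in ROSI 2-cell embryos. PA200 is known for a role with acetylated histones in the testis and in DNA repair. It stood at 138 and 139 TPM in ROSI zygotes and 139, 142 and 142 TPM in ICSI zygotes, all between 138 and 142 TPM. At the 2-cell stage it stood at 102.3, 123.0 and 150.6 TPM in the ROSI and 151.1, 212.0 and 178.6 TPM in the ICSI libraries, so the groups barely separated. The log2 difference was -0.53 (SE 0.15, adjusted p = 0.0499 in limma), and the call held in 2 of 11 fits that left out a library. From zygote to 2-cell embryo it did not pass, with 0.34 (SE 0.15, adjusted p = 0.0601 in limma) after ICSI and -0.16 (SE 0.16, adjusted p = 0.405 in limma) after ROSI. After ICSI it was called higher under median-ratio scaling (0.46), quantile normalization (0.88) and with protein-coding genes alone (0.88). After ROSI it was called higher under quantile normalization (0.33) and with protein-coding genes alone (0.32).

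Subunits of specialised proteasomes were rare. Psma8 replaces Psma7 in proteasomes of male germ cells, Psmb8, Psmb9 and Psmb10 replace the catalytic subunits in the immunoproteasome, and Psmb11 replaces Psmb5 in the thymus. Psma8 was at 0.353 and 0.403 TPM in ROSI zygotes, 0.160, 0 and 0.0533 TPM in ICSI zygotes, 0.384, 1.02 and 0.430 TPM in ROSI 2-cell embryos and 0, 0.443 and 0.173 TPM in ICSI 2-cell embryos, from 0 to 29 estimated reads per library. It did not reach the filter, so no test was made. Psmb8 was at 0.218 and 0.0873 TPM in ROSI zygotes, 0.241, 0.408 and 0.214 TPM in ICSI zygotes, 0.746, 0.334 and 0.177 TPM in ROSI 2-cell embryos and 0.193, 0.244 and 0.294 TPM in ICSI 2-cell embryos. Psmb9 was at 0.136 and 0.103 TPM in ROSI zygotes, 0.339, 0.207 and 0.148 TPM in ICSI zygotes, 0.203, 0.444 and 0.133 TPM in ROSI 2-cell embryos and 0.216, 0.342 and 0.0600 TPM in ICSI 2-cell embryos. Psmb11 was at 0.328 and 0.257 TPM in ROSI zygotes, 0.319, 0.469 and 0.234 TPM in ICSI zygotes, 0.240, 0.908 and 0.657 TPM in ROSI 2-cell embryos and 0.311, 0.746 and 0.707 TPM in ICSI 2-cell embryos. These 3 did not reach the filter either, and in the 11 libraries they rested on 2 to 56 estimated reads each. For Psma8, Psmb8 and Psmb11 the estimates were not whole within 0.05 in every library, so the exon lengths used may not be those of the TPM and their read numbers are uncertain. Psmb10 was the exception. It stood at 1.11 and 0.560 TPM in ROSI zygotes, 0.4999, 0.585 and 0.662 TPM in ICSI zygotes, 6.04, 10.0003 and 5.20 TPM in ROSI 2-cell embryos and 2.94, 3.32 and 5.71 TPM in ICSI 2-cell embryos, and rose by 1.62 (SE 0.26) after ICSI and 2.11 (SE 0.29) after ROSI. Its difference between ROSI and ICSI 2-cell embryos was 0.69 (SE 0.26, adjusted p = 0.121 in limma), and the libraries overlapped.

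Whether the change from zygote to 2-cell embryo differed between ROSI and ICSI was tested as a difference of the 2 changes. No member passed, where 0.0182% of all genes tested did, although 19 of 39 had an unadjusted limma p under 0.05 (15.1% of all genes did). The median was 0.36, against 0.10 for all genes, and 35 of 39 were above 0. The largest was that of Psma4, 1.08 (SE 0.18, adjusted p = 0.0695 in limma), followed by Psmc4 at 0.98 (SE 0.27, adjusted p = 0.141 in limma) and Psmd12 at 0.91 (SE 0.20, adjusted p = 0.108 in limma). Psma4 passed in this comparison with a pseudocount of 5, array weights, quantile normalization, median-ratio scaling, a minimum of 5 TPM, or protein-coding genes alone. With 1 library left out, its log2 difference ran from 0.95 to 1.19. It passed in none of these fits that kept more than 1 library in each group. Psmb5, at -0.69, and Psme4, at -0.50, had the lowest values and did not pass.

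A list of 33 partners of the proteasome, which covers core assembly chaperones, ubiquitin shuttles and ubiquitin-activating enzymes, gave 5 higher and 2 lower genes in ROSI 2-cell embryos, where 4.93% and 4.58% of all genes tested were higher and lower. The median was 0.10, against 0.04 for all genes. Usp14, the deubiquitinase that binds the base, stood at 13.8, 13.7 and 14.2 TPM in the ROSI and 4.86, 5.99 and 7.53 TPM in the ICSI libraries of 2-cell embryos and differed by 1.08 (SE 0.13, adjusted p = 0.00361 in limma). Uchl5, another deubiquitinase of the cap, stood at 11.1, 13.0 and 15.4 TPM in the ROSI and 5.97, 8.59 and 10.2 TPM in the ICSI libraries and differed by 0.63 (SE 0.17, adjusted p = 0.0475 in limma). Both bind the 19S base, Uchl5 through Adrm1. Psmg3, a core assembly chaperone, stood at 3.37, 3.58 and 2.94 TPM in the ROSI and 1.55, 0.778 and 2.13 TPM in the ICSI libraries and differed by 0.82 (SE 0.20, adjusted p = 0.032 in limma). Uba6, an enzyme that activates ubiquitin, stood at 14.7, 13.7 and 18.3 TPM in the ROSI and 7.96, 10.001 and 10.1 TPM in the ICSI libraries and differed by 0.67 (SE 0.13, adjusted p = 0.0131 in limma). The fifth was Nsfl1c, a cofactor of the segregase Vcp (0.49, SE 0.13, adjusted p = 0.036 in limma). The lower genes were AI314180, an older symbol of the proteasome adaptor Ecpas, at 33.5, 33.2 and 39.7 TPM in the ROSI and 46.1, 55.0 and 48.8 TPM in the ICSI libraries (-0.48, SE 0.10, adjusted p = 0.0153 in limma), and the polyubiquitin gene Ubb at 557, 590.3 and 697 TPM in the ROSI and 759, 792 and 809 TPM in the ICSI libraries (-0.36, SE 0.09, adjusted p = 0.0404 in limma). Of these 7 calls, Usp14 and Uba6 held without any single library. The others were lost, Uchl5 without ICSI 2-cell replicate 1 (adjusted p = 0.111), and Psmg3, Nsfl1c, AI314180 and Ubb without ROSI 2-cell replicate 2 (adjusted p = 0.0928, 0.113, 0.0542 and 0.119). Nfe2l1, the transcription factor that raises subunit genes when proteasomes are inhibited, stood at 151 and 147 TPM in ROSI zygotes, 172, 153 and 153 TPM in ICSI zygotes, 86.6, 77.3 and 88.6 TPM in ROSI 2-cell embryos and 85.2, 97.5 and 85.6 TPM in ICSI 2-cell embryos. Its 2-cell groups overlapped (-0.09, SE 0.09, adjusted p = 0.598 in limma). The maturation factor Pomp and the receptor Adrm1 did not pass either, at 0.33 (SE 0.19, adjusted p = 0.293 in limma) and 0.12 (SE 0.12, adjusted p = 0.555 in limma). Pomp stood at 21.1 and 27.8 TPM in ROSI zygotes, 21.1, 23.7 and 27.1 TPM in ICSI zygotes, 7.95, 9.94 and 8.42 TPM in ROSI 2-cell embryos and 4.81, 7.46 and 8.39 TPM in ICSI 2-cell embryos. Adrm1 stood at 37.0 and 33.9 TPM in ROSI zygotes, 39.7, 32.8 and 34.2 TPM in ICSI zygotes, 51.3, 60.6 and 57.7 TPM in ROSI 2-cell embryos and 44.2, 55.7 and 56.0 TPM in ICSI 2-cell embryos. By stage, 7 of the 33 rose and 22 fell after ICSI, and 8 rose and 19 fell after ROSI, where 33.0% and 35.0% of all genes rose and fell after ICSI and 35.6% and 32.3% after ROSI. Pomp fell, with log2 differences of -1.68 (SE 0.19) after ICSI and -1.37 (SE 0.21) after ROSI, and Adrm1 rose, with 0.53 (SE 0.12) after ICSI and 0.66 (SE 0.13) after ROSI. None of the 33 passed in zygotes or in the difference of the changes.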

How the data were processed

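RNA was extracted from embryos with ISOGEN II and made into libraries with a stranded SMART-seq kit, per the labels' protocols. The authors deposited TPM in 1 table with a column for each library, and no column was left unused. The submitters' processing notes name fastp, Bowtie2, STAR 2.7.4a, featureCounts and the build mm10, without roles or order. The annotation and the strand setting are not given in the sources used here, so reads of overlapping antisense genes could be mixed; 12 members overlap another gene, 11 of them on the opposite strand. In 10 members, a copy in the table was at least 95% identical over at least 200 bases (BLAST against GENCODE M21). Reads per library were estimated from the steps of the TPM with GENCODE exon lengths, and 85.1% to 86.7% of values lay within 0.01 of a whole read.

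Genes reaching 1 TPM in 2 or more libraries were fitted in limma 3.58.1 (R 4.3.3) on log2(TPM + 1), with 4 group means over all 11 libraries and a variance trend. Each of 5 contrasts was adjusted by Benjamini-Hochberg over 21938 genes at 0.05 and SE are the moderated ones. The fit was also run on data simulated with independent normal noise and no stage difference, which checks the code and not these libraries. The members, classes and lists were chosen with earlier results of these data known. Values in every library are given for members that passed between ROSI and ICSI, for up to 3 per direction and class by size in each stage contrast, for the highest and lowest of each class, and for a set of fixed genes (Psma4, Psmd14, the tissue forms and the activators). Of the partners, up to 4 per direction were named, with Nfe2l1, Pomp and Adrm1. Alternatives were pseudocounts of 0.1 and 5, no filter or 5 TPM, median-ratio and quantile scaling, no trend, array weights, a replicate block, each library left out, and the groups of a contrast fitted alone. Rescaling to protein-coding genes was added after seeing the data. The read estimates were not used in the fits. They were whole within 0.05 in every library for 33 of 43 members.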

Additional observations from a re-analysis of the deposited data

How the results depend on the processing

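Of 36 members called after ICSI 34 passed in every fit, and of 34 called after ROSI 31 did. Leaving out 1 library, members called higher and lower numbered 9 to 11 and 25 to 26 after ICSI, and 9 to 11 and 23 to 24 after ROSI. Of all genes, 30.2% to 34.1% were higher and 33.2% to 36.2% lower after ICSI in these fits. After ROSI these shares were 30.5% to 37.0% and 28.9% to 33.4%. Rescaling to protein-coding genes raised the median of all genes from 0.00 to 0.20 after ICSI and from 0.19 to 0.32 after ROSI. It then turned Psmd3 to 0.41 and Psmd5 to 0.43 after ICSI, and Psma4 to 0.020, Psme4 to 0.32 and Psmd5 to 0.45 after ROSI. Quantile normalization turned Psma4 to 0.12 and Psme4 to 0.33 after ROSI. Between ROSI and ICSI 2-cell embryos, the 10 higher members became 5 without a filter, 4 without a trend, 2 with these groups fitted alone (fewer libraries, and 19509 genes tested) and 18 with protein-coding genes. Of all genes tested, 1.74%, 4.56%, 1.45% and 14.5% were higher in these fits, in that order. The 1 lower member became 0 with a pseudocount of 0.1, without a filter, without a trend or with the groups alone, and 2 with median-ratio scaling. The shares of all genes that were lower were 3.74%, 1.55%, 3.30%, 1.61% and 10.8%, in that order. Leaving out 1 library gave 2 to 9 higher and 0 to 1 lower, where 2.29% to 4.42% of all genes were higher and 2.11% to 6.66% lower. For the difference of the changes, the 0 higher members became 1 with a pseudocount of 5, a filter of 5 TPM, median-ratio scaling or quantile normalization, 2 with array weights and 3 with protein-coding genes. In the same order, 0.324%, 0.426%, 0.273%, 0.456%, 0.693% and 2.47% of all genes were higher. The cause was not tested. In zygotes no member was called in any fit, where at most 0.738% of all genes were in 1 direction. The median of the members ran from -0.14 to 0.02. Low depth limits Psma8, Psmb8, Psmb9 and Psmb11 most.

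The labels do not pair replicates. Deviations of same-numbered libraries correlated at 0.33 and 0.215 in zygotes but between -0.0432 and 0.0574 otherwise. ROSI zygote replicate 2 and ICSI zygote replicate 3, with different numbers, correlated at 0.206. Deviations of the 2 ROSI zygote libraries mirror each other (-0.33 for ROSI replicate 2 with ICSI replicate 1). The zygote values are therefore not separate and cannot show pairing by number. With the replicate number as a block, 11 members were higher and 1 lower in ROSI 2-cell embryos, where 4.12% and 3.80% of all genes were. Under this block 11 rose and 26 fell after ICSI (32.8% and 34.9% of all genes). After ROSI 10 rose and 26 fell (34.6% and 32.0%). In zygotes 0 members passed, where 0.0182% of all genes were higher and 0% lower. In the difference of the changes 0 members and 0% of all genes passed.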
